A study of Mus musculus with 7 samples.

Results

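Heat shock protein and DnaJ genes were examined in prefrontal cortex (PFC) tissue of mice injected with AAV that carried either allele of a human lncRNA or no insert. The members were the protein-coding genes of the deposited table whose symbol starts with Hsp, or with Dnaja, Dnajb or Dnajc and a number. They numbered 76 of 55416 genes, of which 31 have an Hsp symbol and 45 a DnaJ symbol. The filter on low counts kept 65 members among 17254 genes tested.

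The study injected recombinant AAV into the PFC of female C57BL/6 wild-type mice on both sides and measured polyadenylated RNA in 7 libraries. Ctr mice (3 libraries) received the empty AAV vector, Ref mice (2 libraries) received AAV carrying PAXIP1-AS1 with its reference C allele, and Alt mice (2 libraries) received AAV carrying PAXIP1-AS1 with the alternative G allele. PAXIP1-AS1 is a human lncRNA without a mouse counterpart, and the synapsin promoter of the vector limits its expression to neurons. Every group thus shared the surgery and the AAV, and the transgene was placed in neurons while the RNA came from all cells of the tissue. The labels give no age for these mice, and they do not say whether each library came from a separate animal, so p-values measure the spread between these libraries, which may be technical.

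Heat shock proteins are chaperones that bind unfolded proteins and help them to fold, or hand them to degradation. Hsp70 proteins work in cycles of ATP hydrolysis that are started by J domain proteins, the DnaJ family, and ended by nucleotide exchange factors, among them the Hsp110 proteins. Hsp90 takes over partly folded clients from Hsp70, the chaperonin Hsp60 with its lid Hsp10 folds proteins inside mitochondria, and small heat shock proteins hold unfolded proteins without using ATP. Part of these genes is induced by heat shock factor 1 (HSF1) when unfolded proteins build up, and another part is constitutive and abundant in neurons, where clathrin uncoating and synaptic vesicle release need dedicated DnaJ proteins.

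The libraries held 16655697 to 20750857 counts, of which the members took 0.761% to 0.965%. Counts were scaled to the library total as CPM, with TMM factors from edgeR between 0.924 and 1.05. Alt replicate 1 had the lowest total and the lowest factor, and it stood apart from the other libraries. It was the lowest of the 7 libraries for 38 of the 65 tested members and the highest for 14, beside 32.2% and 27.4% of all tested genes. Relative to the Ctr mean, the median log2 ratio over the members was -0.32 in Alt replicate 1, -0.11 in Alt replicate 2, and -0.06 and -0.04 in the Ref libraries, with a pooled SD within groups of 0.081. All 10 neuron markers chosen for the check were detected in every library, as were the markers of astrocytes, oligodendrocytes, microglia, vessels and blood. The summed level of the neuron markers was 7105 to 7901 CPM in Ctr, 6691 to 7135 in Ref and 6901 to 7606 in Alt. Their median log2 ratio to Ctr was -0.34 in Alt replicate 1, -0.12 in Alt replicate 2, and -0.20 and -0.08 in the Ref libraries. In Alt against Ctr 7 of the 10 neuron markers had a negative log2 fold change and 3 a positive one, with a median of -0.22. For the oligodendrocyte markers it was 2425 to 3431 CPM in Ctr, 4101 to 5101 in Ref and 2374 to 2904 in Alt. Microglia markers summed to 485 to 548 CPM in Ctr, 561 to 577 in Ref and 447.5 to 506 in Alt. In Alt against Ctr 8 of the 10 microglia markers had a negative log2 fold change, with a median of -0.51. At an unadjusted p of 0.05, 4 were lower (beside 10.3% of all genes) and 1 was higher (beside 9.45%). Against Ref 5 were lower (beside 8.83%) and none higher (beside 6.71%). The astrocyte markers summed to 5675 to 7343 CPM in Ctr, 7705 and 9304 in Ref and 11810 and 8441 in Alt, with the highest sum in Alt replicate 1. Their median log2 ratio to Ctr was 0.01 in Alt replicate 1, 0.12 in Alt replicate 2, and 0.21 and 0.27 in the Ref libraries. Alt exceeded Ctr in 2 of the 10 astrocyte markers and was below it in 2 at an unadjusted p of 0.05 (20% each, beside 9.45% and 10.3% of all genes). The part of these shifts in the results was not tested, and in bulk tissue fewer cells of a type and less RNA per cell cannot be told apart.

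Levels per gene length, taken from the FPKM values that the authors deposited, placed 3 cytosolic chaperones far above the other members. Hsp90ab1, the constitutive cytosolic Hsp90, was at 442 ± 41.3 FPKM in Ctr (SD, n = 3), at 410 ± 51.5 in Ref (n = 2) and at 330 ± 70.2 in Alt (n = 2). Hspa8, the constitutive cytosolic Hsp70 that strips clathrin from vesicles, was at 354 ± 22.5 FPKM in Ctr, 305 ± 16.7 in Ref and 262.5 ± 31.1 in Alt. Hsp90aa1, the stress-inducible cytosolic Hsp90, was at 348 ± 34.5, 279 ± 1.55 and 288 ± 3.57 FPKM in the same order. Within Ctr, the libraries of Hsp90ab1 all lay above those of Hspa8, while the ranges of Hspa8 and Hsp90aa1 overlapped.

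The next level in Ctr was 71.8 ± 1.13 FPKM for Dnajc6, which encodes auxilin, the neuronal J protein that recruits Hspa8 to clathrin coats. Hspa5, the Hsp70 of the endoplasmic reticulum (BiP), followed at 63.6 ± 6.06 FPKM, Dnaja2 at 60.3 ± 3.51 and Dnajc5, the cysteine string protein of synaptic vesicles, at 56.9 ± 3.78. Dnajc6 lay above Hspa5 in every Ctr library, and the ranges of Hspa5, Dnaja2 and Dnajc5 overlapped. At the other end, 11 members did not pass the filter. Dnajb8, Dnajc22 and Dnajc5g had no count in any library, and Dnajb13, Dnajb3, Dnajb7, Dnajc5b, Hspb2, Hspb3, Hspb7 and Hspb9 had at most 20 counts in a library. Hspa1a, the inducible cytosolic Hsp70, was tested and was at 7.15, 3.003 and 8.45 CPM in Ctr, 7.26 and 7.55 in Ref and 1.95 and 5.47 in Alt.

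**Figure D1:**
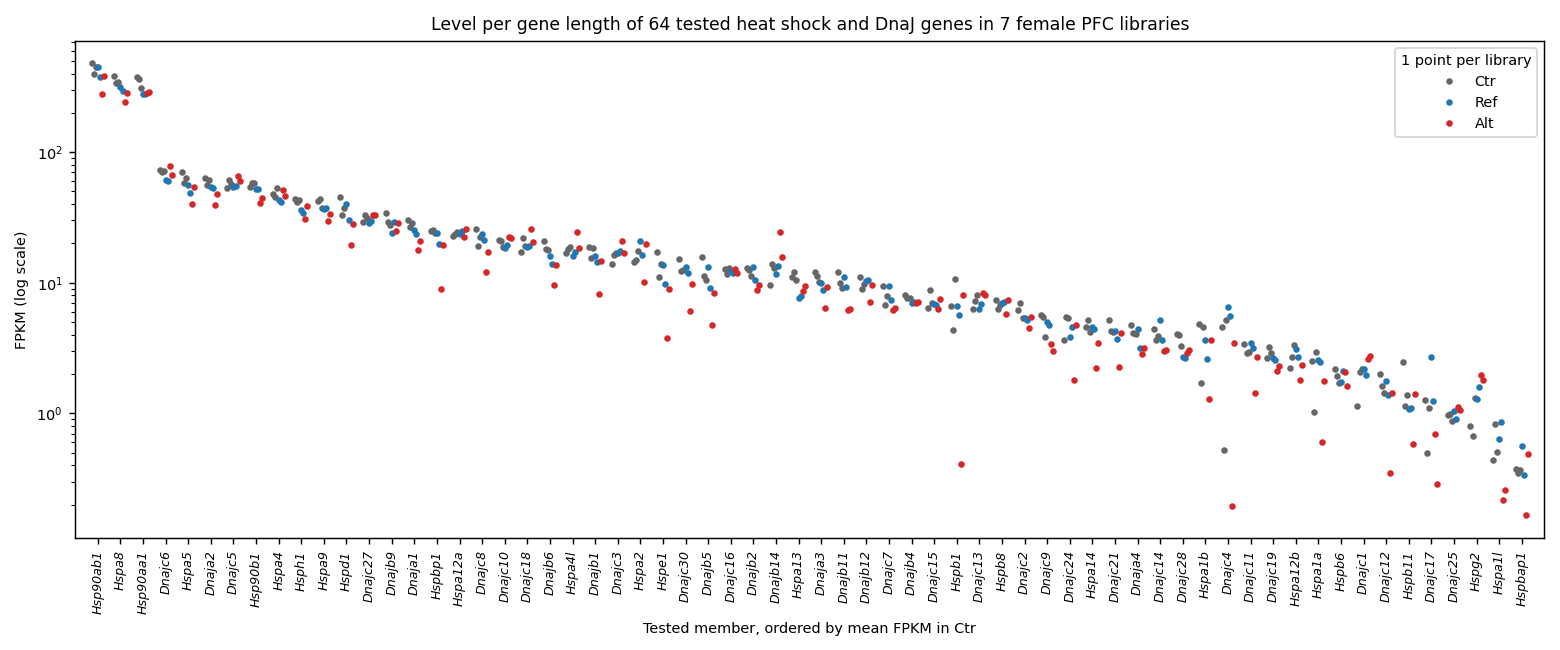
Level of 64 tested members in each of the 7 libraries, in FPKM on a log scale, ordered by the mean in Ctr, with 1 point per library coloured by group. Hsp90ab1, Hspa8 and Hsp90aa1 sit near 262.5 to 442 FPKM as group means.

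Promoter sequence was looked at because members with heat shock elements and members with endoplasmic reticulum stress elements are controlled by different factors. RefSeq promoters of build GRCm38.p6, running from 250 bases before to 50 bases after the start, were at hand for 61 members (78 promoters) and for 32851 promoters in all. A pair of inverted heat shock units was searched as GAANNTTC or TTCNNGAA, and 3 alternating units as GAANNTTCNNGAA or TTCNNGAANNTTC, which contain the pair. Both strands were searched. The pair was in 23.1% of the members' promoters and in 15.1% of all promoters, and the 3 units were in 7.69% and 0.603%. The 4 members with 3 units were Dnajb6, Hspd1, Hspe1 and Hsph1. The endoplasmic reticulum stress element, searched as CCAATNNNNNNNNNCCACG, was in promoters of Dnajc3, Hsp90b1 and Hspa5, which is 3.85% of the members' promoters beside 0.119% of all. These matches are descriptions, and no factor was measured. The windows below are 30 bases long and 5′ to 3′ on the strand of the gene, with the matched letters in capitals. Hspd1 and Hspe1, the Hsp60 and Hsp10 of the mitochondrion, lie head to head, and the same 18 matched letters at chr1:55088053-55088082 are shown first for Hspe1 (plus strand, -89 to -72 from its start) and then for Hspd1 (minus strand, -144 to -127), within an exon of an Hspd1 transcript in GENCODE M21. Dnajb6 is shown at chr5:29735844-29735873 (plus strand, -46 to -34) and Hsph1 at chr5:149636279-149636308 (minus strand, 15 to 27 after its start). Dnaja1, at chr4:40722333-40722362 (plus strand, -124 to -117), holds the pair only.
Hspe1: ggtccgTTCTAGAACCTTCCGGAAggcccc
Hspd1: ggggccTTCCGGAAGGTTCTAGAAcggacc
Dnajb6: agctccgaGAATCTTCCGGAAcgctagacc
Hsph1: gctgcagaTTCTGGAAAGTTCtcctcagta
Dnaja1: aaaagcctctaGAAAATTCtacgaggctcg

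The endoplasmic reticulum stress elements are shown for Dnajc3 at chr14:118937822-118937851 (plus strand, -105 to -87) and for Hspa5 at chr2:34772020-34772049 (plus strand, -65 to -47). Hsp90b1 held 2 of them, and the one at chr10:86705632-86705661 (minus strand, -212 to -194) is shown. All 3 genes code for proteins of the endoplasmic reticulum.
Dnajc3: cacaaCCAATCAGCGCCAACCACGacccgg
Hspa5: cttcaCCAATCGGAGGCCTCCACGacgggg
Hsp90b1: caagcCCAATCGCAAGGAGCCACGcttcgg

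The comparison of Alt with Ctr asks what the G allele transgene changed relative to the empty vector. The quasi-likelihood test of edgeR called 19 of the 65 tested members at an unadjusted p under 0.05 (29.2%, beside 19.8% of all tested genes), of which 13 were lower in Alt (20%, beside 10.3%) and 6 higher (9.23%, beside 9.45%). The lower members included both subunits of the mitochondrial chaperonin and 8 DnaJ genes, and the higher members were Hspg2, Dnajb14, Dnajc1, Dnajc3, Hspa4l and Dnajc18. No member passed an adjusted p of 0.05 in edgeR, where the smallest was 0.1197 and no gene of the whole table passed (0%). DESeq2 called 6 members at an adjusted p of 0.05, Dnaja1, Dnajb14, Dnajb5, Dnajb6, Hspe1 and Hspg2, beside 6.36% of all genes. The median log2 fold change was -0.28 over the members and -0.03 over all tested genes, and 46 members had a negative value. Alt and Ctr libraries did not overlap in 37 members, beside 35% of all tested genes, with Alt below Ctr in 26 (beside 18.1%) and above in 11 (beside 16.8%).

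These counts rested in large part on Alt replicate 1. Without it, 3 members were lower and 4 higher at an unadjusted p of 0.05 (beside 4.46% and 3.68% of all genes), and the median log2 fold change was -0.13. Without Alt replicate 2, 25 were lower and 8 higher (beside 18.9% and 14.3%) and 23 passed an adjusted p of 0.05 in edgeR, as did 3451 genes of the whole table. Without Ctr replicate 1, 7 were lower and 2 higher (beside 6.06% and 5.69%). The calls lost without Alt replicate 1 were Dnaja2, Dnajb1, Dnajb5, Dnajb6, Dnajc18, Dnajc3, Dnajc30, Dnajc8, Hspa14, Hspa4l, Hspbp1, Hspd1 and Hspe1, and those lost without Ctr replicate 1 were Dnaja2, Dnajb1, Dnajc1, Dnajc18, Dnajc3, Dnajc30, Dnajc8, Hspa14, Hspa4l and Hspd1. Without Ctr replicate 2 the calls of Hspa14, Hspa4l and Hspbp1 were lost, without Ctr replicate 3 those of Dnaja2, Dnajb1, Dnajc18, Dnajc8 and Hspa4l, and without either Ref replicate those of Dnaja2, Dnajb1 and Dnajc18, with Dnajc3 also lost without Ref replicate 1. Hspg2, Dnajb14, Dnajc1, Dnajb11 and Dnaja1 were among those that kept an unadjusted p under 0.05 whichever Alt library was left out, and Dnajb14, Hspg2, Dnaja1 and Dnajb11 also did so without Ctr replicate 1.

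**Figure D2:**
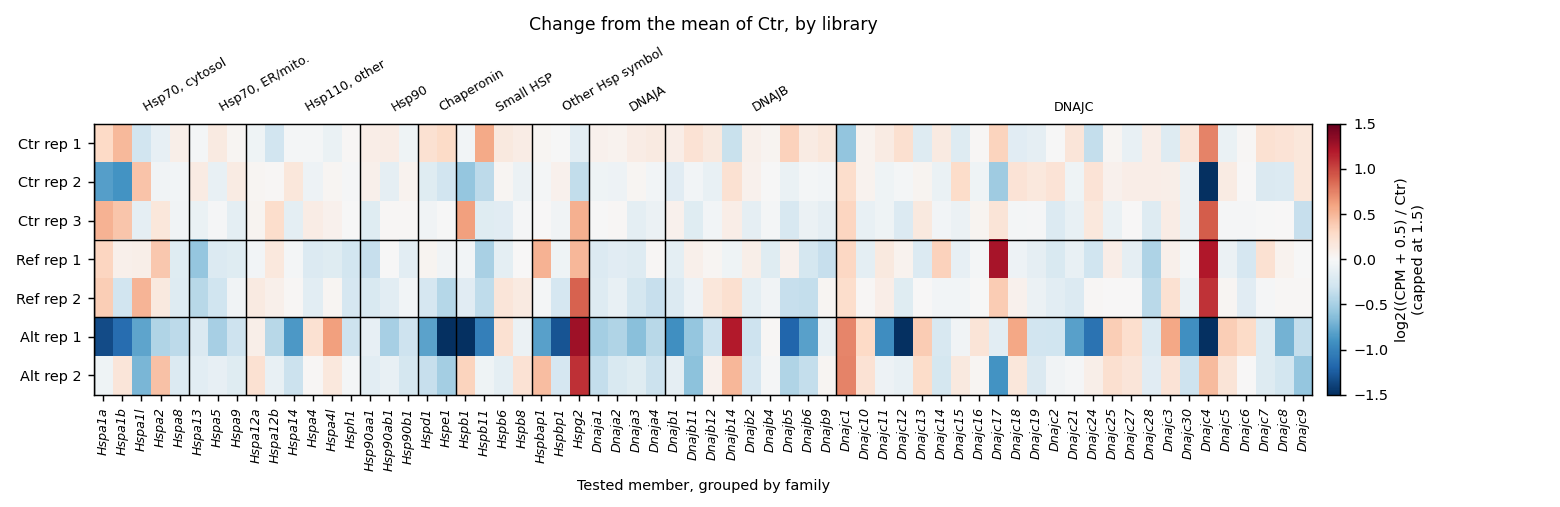
Log2 ratio of each library's CPM, with 0.5 added, to the mean of Ctr for 64 tested members, grouped by family, with libraries as rows and the colour scale capped at 1.5 in both directions. The row of Alt replicate 1 is the darkest, with a median of -0.32 over the 65 tested members, against -0.11 in the row of Alt replicate 2.

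Both subunits of the mitochondrial chaperonin were lower in Alt at an unadjusted p of 0.05, and with the correction for gene length described further on Hspe1 kept this call while Hspd1 lost it (log2 fold change -0.29, unadjusted p = 0.063). Hspe1, the Hsp10 lid of the chaperonin, was at 24.2, 16.2 and 19.7 CPM in Ctr, 19.1 and 14.6 in Ref and 6.05 and 13.7 in Alt. Both Alt libraries lay below every Ctr and every Ref library. The log2 fold change of Alt over Ctr was -1.01 ± 0.33 (SE, edgeR adjusted p = 0.145, DESeq2 adjusted p = 0.048). Hspd1, the Hsp60 that forms the folding chamber, was at 115, 86.1 and 94.5 CPM in Ctr, 100 and 82.3 in Ref and 55.8 and 76.96 in Alt. Again the Alt libraries did not overlap with Ctr or Ref, and the log2 fold change was -0.57 ± 0.19 (edgeR adjusted p = 0.153, DESeq2 adjusted p = 0.067). Without Alt replicate 1 the values were -0.55 for Hspe1 (unadjusted p = 0.083) and -0.36 for Hspd1 (unadjusted p = 0.110). The table lists Hspd1 on chromosome 1 from 55116994 to 55127402 on the minus strand and Hspe1 from 55127291 to 55130466 on the plus strand, in a build that is not stated and that differs from that of the promoter windows. The genes overlap there, and the strand setting of the counting is not given in the sources used here, so reads of the overlap may have been shared.

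Among the DNAJA genes, the general J proteins of cytosolic and mitochondrial Hsp70, all 4 had a negative log2 fold change, with Alt below Ctr without overlap (beside 18.1% of all genes). Dnaja1, a farnesylated partner of cytosolic Hsp70, was at 250.5, 228 and 238 CPM in Ctr, 208 and 209 in Ref and 167 and 186 in Alt. Ref lay between Ctr and Alt with no overlap on either side, and the log2 fold change of Alt over Ctr was -0.44 ± 0.14 (edgeR adjusted p = 0.143, DESeq2 adjusted p = 0.040). Dnaja2, its close relative, was at 180, 165 and 176 CPM in Ctr, 154 and 161 in Ref and 127 and 148.5 in Alt, a log2 fold change of -0.33 ± 0.15. The order of the groups was the same as for Dnaja1. Dnaja3, of mitochondria, and Dnaja4 had log2 fold changes of -0.39 each, with unadjusted p of 0.060 and 0.117. Dnaja3 was at 45.8, 43.3 and 38.4 CPM in Ctr, 37.1 and 35.2 in Ref and 27.2 and 37.5 in Alt. Dnaja3 shares its locus with Coro7 and Vasn, so its reads are less certain. Dnaja1 overlaps Smu1 on the other strand, which had 533 to 955 counts beside 2566 to 5121 of Dnaja1.

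Of 9 tested DNAJB genes, 4 were lower (beside 10.3% of all genes) and 1 was higher (beside 9.45%) at an unadjusted p of 0.05. Dnajb6, which keeps polyglutamine and other aggregation-prone proteins soluble, was at 121, 109 and 104.5 CPM in Ctr, 92.7 and 86.9 in Ref and 63.2 and 87.0 in Alt. Its Alt libraries lay below Ctr and overlapped with Ref, and the log2 fold change was -0.57 ± 0.17 (edgeR adjusted p = 0.129, DESeq2 adjusted p = 0.035). Dnajb5, a J protein related to Dnajb1, was at 89.6, 65.8 and 59.9 CPM in Ctr, 74.1 and 55.3 in Ref and 30.6 and 51.4 in Alt, a log2 fold change of -0.81 ± 0.25 (edgeR adjusted p = 0.134, DESeq2 adjusted p = 0.033). Its Alt libraries lay below every other library. Without Alt replicate 1 the values were -0.36 for Dnajb6 and -0.48 for Dnajb5, with unadjusted p of 0.068 and 0.069. Dnajb1 itself, the heat-inducible J protein of Hsp70, was at 58.3, 48.4 and 57.0 CPM in Ctr, 49.0 and 47.1 in Ref and 28.6 and 49.3 in Alt. The difference in Dnajb1 lay in Alt replicate 1, since Alt replicate 2 was within the range of Ctr, and without Alt replicate 1 its log2 fold change went from -0.49 to -0.15.

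Dnajb11, a J protein of BiP in the endoplasmic reticulum, had nearly the same level in both Alt libraries. It was at 37.7, 31.7 and 28.6 CPM in Ctr, 34.2 and 30.9 in Ref and 21.5 and 21.03 in Alt. Its Ref libraries were inside the Ctr range, and the log2 fold change of Alt was -0.62 ± 0.19 against Ctr (edgeR adjusted p = 0.135, DESeq2 adjusted p = 0.061) and -0.61 ± 0.21 against Ref. Dnajb14, a membrane-bound J protein of the endoplasmic reticulum, went the other way. It was at 146, 216 and 197 CPM in Ctr, 176 and 217.5 in Ref and 421 and 259.5 in Alt, a log2 fold change of 0.87 ± 0.22 or 1.83-fold (edgeR adjusted p = 0.1197, DESeq2 adjusted p = 0.007). Both Alt libraries lay above the other 5, by far the more in Alt replicate 1, without which the log2 fold change was 0.48 (unadjusted p = 0.032). The remaining tested genes, Dnajb2, Dnajb4, Dnajb9 and Dnajb12, had log2 fold changes between -0.29 (Dnajb2) and -0.0029 (Dnajb4).

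**Figure D3:**
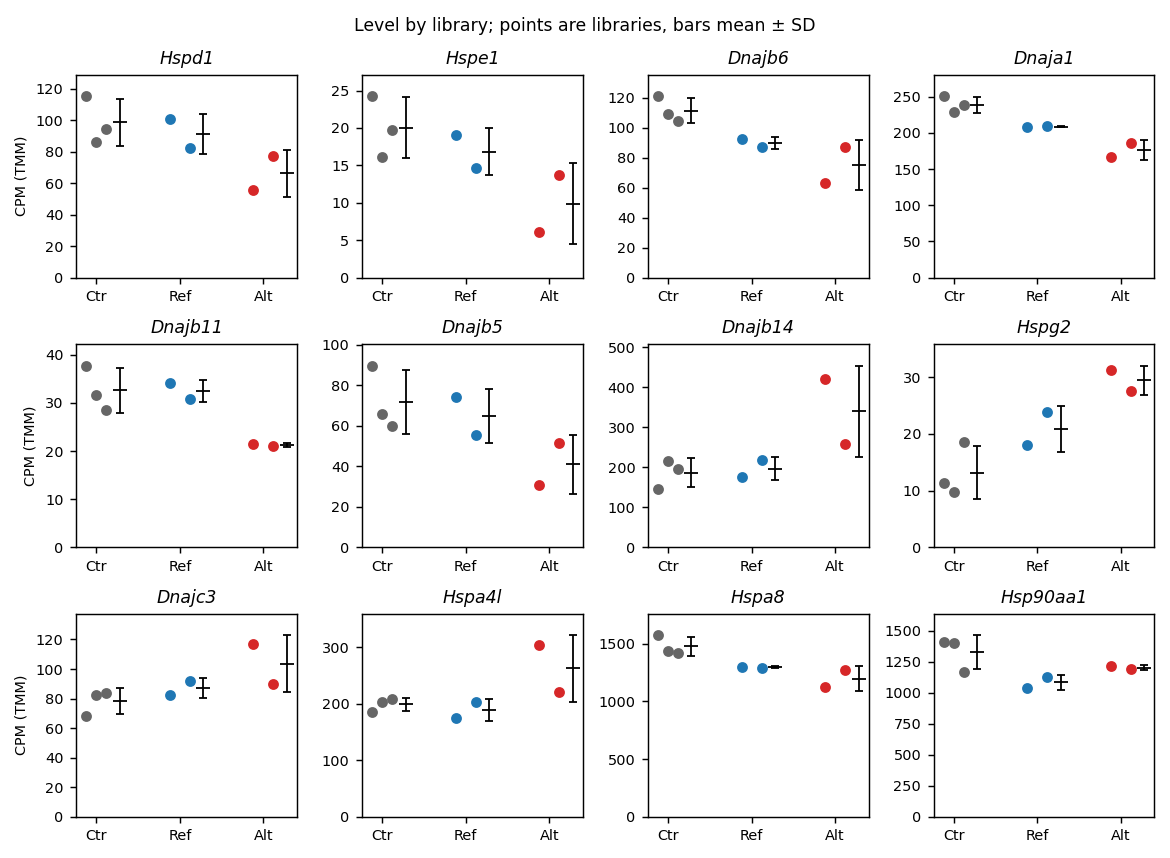
Level in CPM (TMM scaled, axes from 0) of 12 members in each library, as 1 point per library, with the mean and SD of each group as a black bar beside the points. Hspe1, Hspd1, Dnaja1, Dnajb11 and Dnajb5 show both Alt libraries below every Ctr library, Dnajb14 and Hspg2 show both above, and Hsp90aa1 shows Alt within the range of Ctr.

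DNAJC genes carry a J domain in otherwise diverse proteins. Of 25 tested, Alt exceeded Ctr in 3 (12%) and was below it in 2 (8%) at an unadjusted p of 0.05, shares near the 9.45% and 10.3% of all genes, and 11 had a positive log2 fold change. Dnajc3, which holds unfolded proteins in the endoplasmic reticulum and was named for its inhibition of the kinase PKR, was at 68.3, 82.6 and 84.0 CPM in Ctr, 82.2 and 91.7 in Ref and 117 and 90.01 in Alt, a log2 fold change of 0.40 ± 0.17 (edgeR adjusted p = 0.214). Dnajc1, a membrane J protein of the endoplasmic reticulum, was at 12.9, 23.6 and 24.6 CPM in Ctr, 24.4 and 23.6 in Ref and 33.0 and 33.1 in Alt. Ctr replicate 1 was the low library, and without it the log2 fold change went from 0.70 to 0.45 (unadjusted p = 0.051). Dnajc1 overlaps Mllt10 on the other strand. Dnajc18 was at 91.6, 119 and 101 CPM in Ctr, 97.6 and 108 in Ref and 154 and 116 in Alt, a log2 fold change of 0.38 ± 0.17, and its Alt replicate 2 was within the range of Ctr. The lower DNAJC genes were Dnajc8, a spliceosome-associated J protein (-0.49 ± 0.19), at 63.9, 47.7 and 55.2 CPM in Ctr, 57.3 and 55.7 in Ref and 33.5 and 45.6 in Alt, and Dnajc30, of the mitochondrial inner membrane (-0.61 ± 0.24), which overlaps Bud23 on the other strand. Without Alt replicate 1 the log2 fold changes were 0.20 for Dnajc3, 0.17 for Dnajc18 and -0.28 for Dnajc8. The synaptic J proteins Dnajc5 and Dnajc6 did not pass. Dnajc5 was at 357, 416 and 379 CPM in Ctr, 361 and 391 in Ref and 495 and 437 in Alt (log2 fold change 0.28, 95% interval -0.04 to 0.60), and Dnajc6 had a log2 fold change of 0.15 (interval -0.16 to 0.47). Dnajc11 and Dnajc13 are described with the comparison of Alt and Ref. The other 16 tested genes, Dnajc2, Dnajc4, Dnajc7, Dnajc9, Dnajc10, Dnajc12, Dnajc14 to Dnajc17, Dnajc19, Dnajc21, Dnajc24, Dnajc25, Dnajc27 and Dnajc28, had log2 fold changes between -0.83 (Dnajc17) and 0.34 (Dnajc25). Dnajc4 varied widely within groups, at 5.51, 0.640 and 6.22 CPM in Ctr, 7.74 and 7.08 in Ref and 0.260 and 4.46 in Alt.

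The cytosolic Hsp70 and Hsp90 genes included the 3 members with the highest levels, and none of them passed an unadjusted p of 0.05 in Alt against Ctr. Hspa8 was at 1571, 1433 and 1420 CPM in Ctr, 1301 and 1292 in Ref and 1120 and 1274 in Alt. The Alt libraries lay below both other groups, and the log2 fold change against Ctr was -0.30 with a 95% interval from -0.61 to 0.01. Hsp90ab1 was at 1381, 1173 and 1303 CPM in Ctr, 1279 and 1148 in Ref and 912 and 1187 in Alt (log2 fold change -0.29, interval -0.64 to 0.06), with Alt replicate 2 inside the range of Ctr. Hsp90aa1 was at 1413, 1400 and 1171 CPM in Ctr, 1043 and 1127 in Ref and 1216 and 1190 in Alt, and its interval ran from -0.46 to 0.18. The inducible Hspa1a and Hspa1b, which are nearly identical and whose reads may have been split between them, had log2 fold changes of -0.73 ± 0.50 and -0.47 ± 0.47. Hspa1b was at 13.1, 4.73 and 12.5 CPM in Ctr, 9.77 and 7.45 in Ref and 3.902 and 10.5 in Alt. Hspa2, best known from male germ cells and also present in brain, was at 36.7, 38.5 and 45.0 CPM in Ctr, 52.9 and 44.2 in Ref and 29.0 and 54.5 in Alt, so that the 2 Alt libraries lay on either side of the others. The low Hspa1l, between 0.585 and 2.17 CPM, had a log2 fold change of -1.17 ± 0.78.

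None of the 3 Hsp70 genes of organelles passed, and of the 6 genes of the Hsp110 and Hsp70-related group Hspa4l was called higher and Hspa14 lower, 16.7% each beside 9.45% and 10.3% of all genes. Hspa5 was at 284.5, 241 and 257 CPM in Ctr, 225 and 212 in Ref and 183.5 and 238 in Alt (log2 fold change -0.31, interval -0.66 to 0.04). Hsp90b1, the Hsp90 of the endoplasmic reticulum (GRP94), was at 212, 230 and 225 CPM in Ctr, 199.5 and 216 in Ref and 179 and 186 in Alt (log2 fold change -0.29, interval -0.59 to 0.02). Hspa9, the mitochondrial Hsp70 (mortalin), was at 175, 187 and 155 CPM in Ctr, 152 and 165 in Ref and 138 and 152 in Alt (interval -0.58 to 0.08). Hsph1, an Hsp110 exchange factor induced by heat, had 305, 298 and 299 CPM in Ctr, 249 and 252 in Ref and 242 and 294 in Alt. Ref and Alt were both below Ctr without overlap, and the log2 fold change of Alt was -0.17 (interval -0.48 to 0.15). Hspa4l, a related exchange factor, was higher, at 185.5, 203 and 208 CPM in Ctr, 175.5 and 203 in Ref and 304 and 221 in Alt (log2 fold change 0.40 ± 0.17, unadjusted p = 0.034). Hspa14, a ribosome-associated Hsp70 that overlaps Gm45902 on the same strand, was at 17.9, 20.6 and 16.4 CPM in Ctr, 17.8 and 18.4 in Ref and 9.82 and 14.5 in Alt (-0.59 ± 0.24, unadjusted p = 0.030). Without Alt replicate 1 the log2 fold changes were 0.15 for Hspa4l and -0.33 for Hspa14. Hspa4 and Hspa12a had values of 0.12 and 0.16. Hspa12b, an atypical Hsp70 of endothelial cells, was at 7.84, 9.80 and 11.8 CPM in Ctr, 10.8 and 10.2 in Ref and 7.15 and 8.92 in Alt.

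Of the small heat shock proteins, 4 of 8 were tested and none passed. Hspb1 (Hsp25), a heat-inducible member, had 6.603, 4.38 and 10.6 CPM in Ctr, 6.58 and 5.998 in Ref and 0.455 and 8.70 in Alt. Alt replicate 1 was the lowest of all libraries, with 7 counts, and Alt replicate 2 was within the range of Ctr, with 156 counts. Hspb8, which acts with Bag3 in autophagy of misfolded proteins, lay between 12.1 and 15.1 CPM in all 7 libraries. Hspb6 and Hspb11 had log2 fold changes of 0.06 ± 0.36 and -0.62 ± 0.55.

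Of the 3 members with an Hsp symbol but no chaperone fold, Hspg2, which encodes the basement membrane proteoglycan perlecan, had the lowest edgeR p of all members in this comparison, while in DESeq2 that of Dnajb14 was lower. It was at 11.3, 9.70 and 18.5 CPM in Ctr, 18.1 and 23.8 in Ref and 31.3 and 27.7 in Alt. Alt lay above both other groups, at 2.24-fold of Ctr, with a log2 fold change of 1.16 ± 0.27 (edgeR adjusted p = 0.1197, DESeq2 adjusted p = 0.007). Of 10 markers of endothelium and mural cells, which lay down perlecan, 8 had a positive log2 fold change in this comparison and 1 passed an unadjusted p of 0.05 (10%, beside 19.8% of all genes). The summed level of these markers was 614 to 750 CPM in Ctr, 729 to 866 in Ref and 818 to 871 in Alt. Their part in the level of Hspg2 was not tested. Hspbp1, an exchange factor for Hsp70, was at 45.2, 47.4 and 43.8 CPM in Ctr, 43.3 and 38.1 in Ref and 18.2 and 38.0 in Alt (log2 fold change -0.69 ± 0.26), a difference that was -0.25 without Alt replicate 1. Hspbap1, which binds Hspb1, was at 3.43, 3.25 and 3.34 CPM in Ctr, 5.03 and 3.26 in Ref and 1.69 and 4.80 in Alt.

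Gene length moved with these differences. The length that the authors used was a median of 4229 bases for the tested members and 4051 for all tested genes, but 11576 (5141 to 15741) for the 6 higher members and 2975 for the 13 lower ones. After a loess correction for length in each library, 8 members were lower and 5 higher at an unadjusted p of 0.05, beside 8.08% and 8.22% of all genes, and the median log2 fold change was -0.18, beside 0.01 over all genes. The correction kept 6 of the 13 lower calls (among them Dnaja1, Dnajb5, Dnajb6, Hspa14 and Hspe1) and 4 of the 6 higher calls (Dnajb14, Dnajc18, Dnajc3, Hspg2), and no call changed its sign. It added Dnajc11 (-0.70) and Dnajc7 (-0.41) to the lower calls and Hspb8 (0.47) to the higher ones. The calls that ended were Hspd1, Dnaja2 (from -0.33 to -0.09), Dnajb1 (from -0.49 to -0.29), Dnajb11 (from -0.62 to -0.39, unadjusted p = 0.050), Dnajc8 (from -0.49 to -0.20), Dnajc30 (from -0.61 to -0.18), Hspbp1 (from -0.69 to -0.33), Dnajc1 (from 0.70 to 0.41) and Hspa4l. Dnajb14 went from 0.87 to 0.40 and Hspe1 from -1.01 to -0.59, while Dnaja1 went from -0.44 to -0.63. Hspa4l was near 0 after it (0.08).

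**Figure D4:**
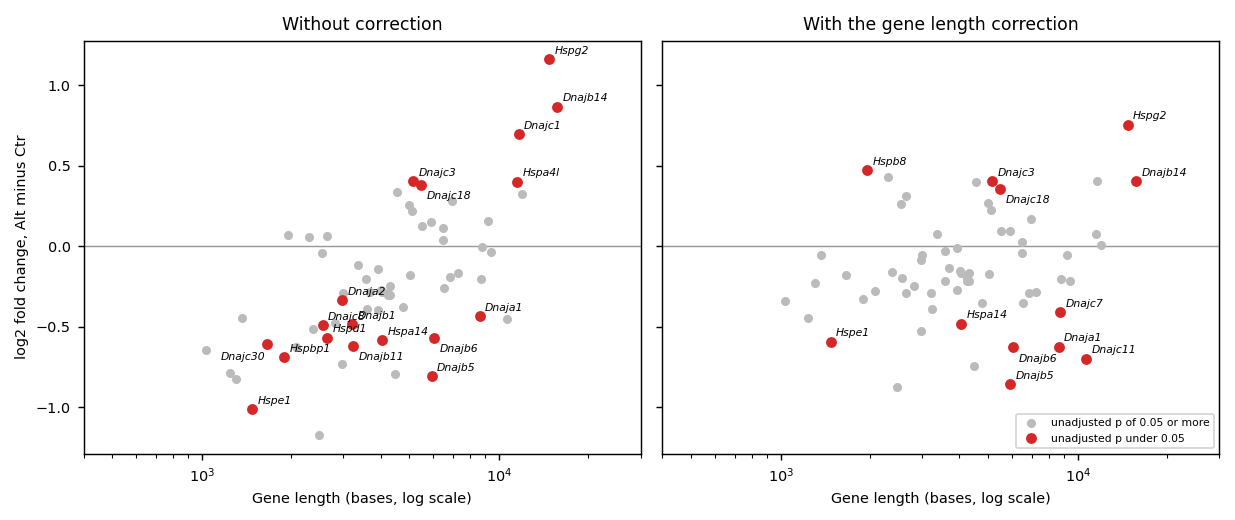
Log2 fold change of Alt over Ctr against gene length in bases on a log scale, 1 point for each of 64 tested members, without (left) and with (right) the length correction, with members at an unadjusted p under 0.05 in red and named. Before the correction the named higher members lie at 5141 bases or more.

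The comparison of Alt with Ref asks what the G allele changed relative to the C allele, and it shares the Alt libraries with the comparison above. At an unadjusted p of 0.05, 11 members were called (beside 15.5% of all genes), 7 lower in Alt (beside 8.83%) and 4 higher (beside 6.71%), and none passed an adjusted p of 0.05 in edgeR, which called 0.0058% of all genes. DESeq2 called 1, Dnajb14, at an adjusted p of 0.039, beside 2.49% of all genes. The lower members included Dnajb11, Dnajb5, Dnajc11, Dnajc8, Hspa14 and Hspd1, and the higher ones were Dnajb14, Dnajc13, Dnajc6 and Hspa4l. The median log2 fold change was -0.20 over the members and -0.04 over all genes. Groups did not overlap in 41 members (beside 47.7% of all genes), with Alt below Ref in 24 (beside 26.1%) and above in 17 (beside 21.6%).

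Dnajc13, a J protein of endosomes, was at 72.7, 85.7 and 92.0 CPM in Ctr, 72.0 and 83.3 in Ref and 108.5 and 101 in Alt (log2 fold change 0.43 ± 0.17, edgeR adjusted p = 0.282). Dnajc6 was at 347 and 368 CPM in Ref and 503 and 414 in Alt (0.36 ± 0.16, edgeR adjusted p = 0.312), and in Ctr it was at 417, 414 and 407. Its Ref libraries lay below all others, as against Ctr in 10.5% of all genes, and Ref against Ctr did not pass (log2 fold change -0.21, unadjusted p = 0.182). Dnajc11, of the mitochondrial inner membrane organizing system, was at 34.9, 30.6 and 30.4 CPM in Ctr, 35.3 and 34.3 in Ref and 16.5 and 30.2 in Alt. Without Alt replicate 1 no member was higher and 3 were lower (beside 2.35% and 4.40% of all genes), the median turned to 0.06, and Dnajb11 was among the calls that kept an unadjusted p under 0.05. Without Ref replicate 1, 1 member was lower and none was higher (beside 2.88% and 1.3% of all genes). Without Alt replicate 2, 22 were lower, 8 higher, and 15 passed an adjusted p of 0.05 in edgeR, beside 17.3% and 11.6% of all genes and 2708 genes past the adjusted threshold. With the length correction 7 members were higher and 6 lower (beside 6.67% and 6.31%), and the median was -0.03. The correction ended the calls of Dnajb11 (-0.61 to -0.39), Dnajc13 (0.43 to 0.16), Dnajc8 (-0.51 to -0.22), Hspa14 (-0.57 to -0.46), Hspa4l (0.47 to 0.20) and Hspd1 (-0.46 to -0.18), and added calls of Dnaja1, Dnajb9, Dnajc10, Dnajc14, Dnajc18, Dnajc27, Dnajc7 and Hspa4. Oligodendrocyte markers were lower in Alt than in Ref for all 10 genes, 8 of them at an unadjusted p of 0.05 (80%, beside 8.83% of all genes). Dnajc7 overlaps the oligodendrocyte gene Cnp on the other strand.

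The comparison of Ref with Ctr asks what the C allele transgene changed relative to the empty vector. It gave 2 calls at an unadjusted p of 0.05 (beside 3.14% of all genes), 1 higher and 1 lower in Ref (beside 2.19% and 0.945%), and none at an adjusted p of 0.05 in edgeR (0% of all genes) or in DESeq2 (0.0348%). Hspa13, an Hsp70 of the endoplasmic reticulum that lacks the peptide-binding domain, was the lower one, at 73.3, 81.5 and 69.6 CPM in Ctr and 49.7 and 55.6 in Ref. Alt was between them at 64.1 and 67.0 CPM, and the log2 fold change of Ref over Ctr was -0.51 ± 0.15 (unadjusted p = 0.007). Hspg2 was the higher one (0.67 ± 0.27, unadjusted p = 0.032), though Ctr replicate 3 lay above Ref replicate 1. Each of these calls was lost without some library, Hspa13 without Ref replicate 1 and Hspg2 without Ctr replicate 1, Ctr replicate 2 or Ref replicate 2. Ref and Ctr did not overlap in 16 members (beside 22.9% of all genes), with Ref below in 14 (beside 10.5%) and above in 2 (beside 12.4%). Hspa8, Hsp90aa1, Hspa5, Hsph1, Dnaja1 and Dnajb6 were among the 14, with log2 fold changes between -0.31 (Dnajb6) and -0.19 (Hspa8). The oligodendrocyte markers were higher in Ref for all 10 genes, 8 of them at an unadjusted p of 0.05 (80%, beside 2.19% of all genes), and their part was not tested.

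Other genes of the same pathways were taken from lists that were set with earlier results of these data known, and that share some members with the families above. In Alt against Ctr, the counts of these lists stand beside 10.3% of all genes lower and 9.45% higher at an unadjusted p of 0.05. The length correction and the fits with a library left out were read for the members only, so the shares of these lists were not checked that way. Of 19 heat-inducible targets of HSF1, Alt was below Ctr in 6 (31.6%) and above it in 1 (5.26%), and the median log2 fold change was -0.44. Relative to the Ctr mean, Alt replicate 1 had a median log2 ratio of -0.62 over the list, and Alt replicate 2 one of -0.14. The 6 were Hspd1, Hspe1, Dnaja1 and Dnajb1 from the members and Ahsa1 and Fkbp4 from outside, and the higher one was Hspa4l. Hsf1 itself was at 17.7, 15.3 and 24.1 CPM in Ctr, 22.1 and 23.1 in Ref and 14.5 and 11.7 in Alt, a log2 fold change of -0.54 against Ctr (unadjusted p = 0.047) and -0.79 against Ref (unadjusted p = 0.012). DESeq2 did not call Hsf1 lower than Ctr at an unadjusted p of 0.05. Of the 4 heat shock factors tested, only Hsf1 was called in either comparison (25%, beside 10.3% and 8.83% of all genes). A positive log2 fold change was seen in 1 of them against Ctr and in 2 against Ref. Against Ref, 4 of the 19 targets were lower and 1 was higher (beside 8.83% and 6.71% of all genes), and in Ref against Ctr 1 was higher and none lower (beside 2.19% and 0.945%). That higher one, Cryab, a small heat shock protein abundant in oligodendrocytes, was at 43.0, 31.6 and 49.0 CPM in Ctr, 63.2 and 59.9 in Ref and 26.3 and 36.3 in Alt. The Ref libraries were the highest for Cryab and for the summed oligodendrocyte markers, while Alt and Ctr overlapped in both. The part of oligodendrocytes in the level of Cryab was not tested.

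In the 24 genes of endoplasmic reticulum stress and folding, Alt was below Ctr in 6 (25%) and above it in 2 (8.33%, near the 9.45% of all genes), with a median of -0.32. Alt replicate 1 had a median log2 ratio to Ctr of -0.48 over these genes, and Alt replicate 2 one of -0.14. The lower ones were Dnajb11, the stress transcription factors Atf4 (log2 fold change -0.88, unadjusted p = 0.005) and Ddit3 (-0.75, unadjusted p = 0.039), the lectin chaperone Calr, the disulfide isomerase Pdia3 and Manf. Atf4 was at 84.2, 52.3 and 68.4 CPM in Ctr, 72.1 and 59.1 in Ref and 27.1 and 47.3 in Alt. Ddit3 was at 11.02, 9.65 and 10.5 CPM in Ctr, 12.5 and 8.74 in Ref and 4.097 and 8.20 in Alt. In both genes the Alt libraries lay below every other library, and Alt replicate 1 was the lower of them by far. The higher ones were Dnajc3 and Atf6, the membrane-bound stress sensor, which was at 80.6, 110 and 123 CPM in Ctr, 106 and 122 in Ref and 229 and 134 in Alt. Of the 3 members with the stress element printed above, Dnajc3 thus had a positive log2 fold change, and Hspa5 and Hsp90b1 had negative ones with unadjusted p of 0.082 and 0.063.

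Partners of Hsp90 and Hsp70 in the cytosol and in mitochondria, and other chaperones, made up the remaining lists. Of 17 Hsp90 co-chaperones 6 were lower (35.3%, beside 10.3% of all genes) and none higher in Alt than in Ctr, with the lowest p for Nudc (log2 fold change -0.73), and against Ref 6 were lower (beside 8.83%) and 1, St13, was higher (beside 6.71%). The glucocorticoid-induced Fkbp5 was highest in Ref, at 23.5, 20.7 and 17.5 CPM in Ctr, 39.8 and 35.4 in Ref and 24.8 and 27.8 in Alt. Its log2 fold change was 0.87 in Ref against Ctr (unadjusted p = 0.00074) and 0.36 in Alt against Ctr. It was the only 1 of the 17 called in Ref against Ctr (5.88%, beside 2.19% of all genes higher), and it did not pass an adjusted p of 0.05 there. Of 9 exchange factors outside the members 2 were lower in Alt than in Ctr (Bag1 and Grpel2), of 8 subunits of the cytosolic chaperonin TRiC 3 were lower (Cct2, Cct3, Cct7), of 6 prefoldin subunits 2 (Pfdn1 and Pfdn5), and of 7 other chaperones 1 (Lonp1), with none higher in any of these lists. These shares were 22.2%, 37.5%, 33.3% and 14.3%, beside 10.3% of all genes. The median log2 ratios to Ctr in Alt replicates 1 and 2 were -0.43 and -0.21 for the Hsp90 co-chaperones, -0.76 and -0.19 for the exchange factors, -0.56 and -0.16 for TRiC, -0.56 and -0.29 for prefoldin, and -0.16 and 0.03 for the other chaperones, so that each was lower in Alt replicate 1. The log2 fold changes of the 3 TRiC subunits were -0.55 for Cct7, -0.52 for Cct3 and -0.46 for Cct2, and 7 of the 8 subunits had a negative value.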

How the data were processed

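PFC RNA of female mice was read from 1 table of 7 libraries (3 Ctr, 2 Ref, 2 Alt), grouped by the labels. The authors deposited counts of reads per gene without normalization, and also TPM and FPKM values computed from the counts and a gene length. The submitters' processing notes name STAR and featureCounts, without versions or settings, and a human genome build, while the gene identifiers are from mouse, so coordinates are as the table lists them. RNA was enriched by oligo(dT), which counts polyadenylated transcripts only.

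Counts were tested in R 4.3.3 with edgeR 4.0.16 (TMM, filterByExpr by group, glmQLFit and glmQLFTest) with all 7 libraries sharing 1 estimate of the spread, and p-values were adjusted by Benjamini-Hochberg over the 17254 genes tested. DESeq2 1.42.0 was an alternative. A call is an unadjusted p under 0.05 unless an adjusted p is named. SE is the log2 fold change divided by the square root of F. TPM values were not used, and FPKM values gave levels only. The length correction removed, per library, a loess curve of span 0.3 through offsets. Other alternatives were DESeq2 size factors, other filters, robust fitting, the replicate number as a block, a numeric score, fits on 2 groups, and each library left out. Scripts were tested on simulated data. Libraries of a group differed by more than sampling noise (chi-square per degree of freedom 18.97 to 59.65).

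Members and lists were chosen with earlier results of these data known. Values per library are given for 20 members of a list that was fixed with those earlier results known, and for up to 8 members per direction and comparison with the lowest unadjusted p under 0.05. They are also given for the 5 highest in FPKM in Ctr and, from the other lists, for up to 3 genes per direction. Values of Dnaja2, Dnaja3, Dnajc4, Hspbap1, Atf4, Ddit3 and Cryab were added to describe a family or a list, and other members are given by a range or a log2 fold change. RefSeq protein sequences were not used here. A tested member is included in the counts and medians and is not reported here.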

Additional observations from a re-analysis of the deposited data

How the results depend on the processing

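Of the counts and medians per comparison, 151 values under the alternatives stayed within 1.5 times the reported count or within the spread of the reported median, 48 moved and 1 reversed. Of the values per named member, 1441 kept their side of the unadjusted threshold and either their direction or a distance under 1 SE, 125 lost the call, 51 gained it and 12 uncalled values moved by more than their SE. No called member changed its sign.

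For Alt against Ctr, members past an adjusted p of 0.05 were 6 in DESeq2, 7 in edgeR with no low-count filter and 4 with a numeric score in DESeq2 (beside 1097, 1484 and 596 of all genes), against 0 in edgeR with the filter and all libraries. The gene length correction gave 8 lower members, of which 6 were among the 13, and a median log2 fold change of -0.18. Leaving out each library in turn gave 2 to 8 higher and 3 to 25 lower members, 0 to 23 past the adjusted threshold and medians from -0.32 to -0.13. For Alt against Ref, DESeq2 gave 9 higher members (beside 8.54% of all genes) and 1 past the adjusted threshold (beside 429 genes), DESeq2 size factors in edgeR gave 4 lower (beside 7.88%), no low-count filter gave 13 lower (beside 7.6%) and 3 past the adjusted threshold (beside 850 genes), the length correction gave 7 higher (beside 6.67%) and a median of -0.0318, and a fit on the 2 groups gave 2 higher and 4 lower (beside 5.43% and 6.33%). Leaving out each library gave 0 to 8 higher and 1 to 22 lower members, 0 to 15 past the adjusted threshold and medians from -0.30 to 0.0579. The median turned to 0.0579 without Alt replicate 1. For Ref against Ctr, 2 members were lower in DESeq2 and with the length correction (beside 1.4% and 2.07%) and 4 in a fit on the 2 groups (beside 2.5%), 2 were higher with no low-count filter (beside 2.12%), and leaving out each library gave 0 to 1 higher and 0 to 4 lower. Fewer samples or fewer genes tested are part of these alternatives, and beyond that the cause was not tested.

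The correlations of same-numbered libraries' deviations from their group means were 0.06 and 0.07 for Ctr with Ref, -0.10 and -0.09 for Ctr with Alt, and -0.09 for Ref with Alt. In a group of 2 libraries the deviations mirror each other, so these values cannot show whether the replicate numbers pair the samples. With the replicate number as a block, Alt against Ctr had 3 higher and 10 lower members (beside 6.54% and 6.1% of all genes), Alt against Ref 1 higher and 2 lower (beside 3.76% and 5.25%), and Ref against Ctr 1 higher and 1 lower (beside 1.79% and 0.707%). With the block and the length correction, Alt against Ctr had 3 higher and 7 lower members (beside 6.37% and 5.67%) and a median of -0.19 (0.01 over all genes), Alt against Ref had a median of -0.0317, and Ref against Ctr had 2 lower (beside 1.95%).

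With 2 or 3 libraries per group and 17254 genes, the smallest adjusted p of a member in edgeR was 0.1197. Low genes such as Hspb1, with 7 and 156 counts in the Alt libraries, gave wide intervals. Where a group was left with 1 library, that library was taken to vary like the other groups.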
